A study of Mus musculus with 6 samples.

Results

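Serpins and cystatins are the main families of protein protease inhibitors in the epidermis, the stratified outer epithelium of the skin. Members were taken from the deposited mouse gene table by gene symbol and protein-coding type: the symbols Serpina to Serpini with a number, Cst with a number or a, b or d, Stfa with a number, and BC100530. This gave 78 genes of 54532, of which 61 are serpins and 16 are cystatins or stefins. The remaining match, Cstad, shares only the letters of its symbol with the cystatins, by its full name in the table, and is counted apart from both families. The libraries were made from the epidermis of newborn mice, 3 with the genotype Paxbp1 knockout and 3 with the genotype wild type. Fat and dermis were removed, the tissue stood overnight in Dispase II, and the epidermis was then peeled off. The method and cell type of the Paxbp1 deletion, the strain and whether each library is 1 animal is not given in the sources used here. P-values therefore measure the spread between these libraries, which may be technical. Paxbp1 itself stood at 109.5, 70.8 and 77.8 CPM in wild type libraries 1 to 3 and 134, 73.6 and 69.7 CPM in libraries 1 to 3 with the knockout label (edgeR adjusted p = 0.783). Its whole-gene count does not go down with the label and so does not check it. Wherever a direction is given below, "knockout" means the library labelled so.

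A serpin presents a flexible loop as bait: the protease cuts it, the serpin springs into a new fold and the enzyme is trapped in a covalent complex. Clade B serpins stay mostly inside cells, and keratinocytes carry several of them, while the other clades act mainly in the extracellular space on proteases of clotting, fibrinolysis, complement and inflammation. Cystatins and stefins instead plug the active site of papain-like cysteine proteases, chiefly the cathepsins of the lysosome, without being cut. Stefins, which include cystatin A and cystatin B, lack a signal peptide and remain in the cell, where cystatin A also becomes part of the cornified envelope. In mice the cystatin A gene has been copied many times on chromosome 16, and these copies are known from both keratinocytes and granulocytes.

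Both families held genes that rose and genes that fell. Of the 78 members, 45 passed the filter on low counts and were tested with the edgeR quasi-likelihood test. Of these, 18 were higher and 13 lower at an adjusted p under 0.05 over all genes tested. For comparison, 28.7% of the 16471 genes in the test were called higher and 25.1% lower, 53.8% in either direction. The share of members called lower lies near that of all genes and the share called higher lies above it. Neither difference was tested. Serpins gave 13 higher and 11 lower of 34 tested (median log2 fold change 0.49), and cystatins and stefins 5 higher and 2 lower of 10 tested (median 1.20), against a median of -0.029 over all genes. The counts and medians describe the families, and the difference between them was not tested. Cstad, at under 1 CPM in every library, was not called (edgeR adjusted p = 0.0669).

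The other 33 members were not tested. Of these, 14 had no count in any library, including 6 cystatins of the chromosome 2 cluster, and the 19 others had 1 to 65 counts over all 6 libraries. Of these 19 members, 11 had counts in the knockout libraries only and 4 in the wild type libraries only. Below, levels are CPM, reads of a gene scaled to a common library size with TMM factors, as mean ± SD over 3 libraries. Levels of different genes are set side by side only in the deposited FPKM, which are scaled by gene length. Members with a mean of at least 10 CPM in either group are given in each library. There were 28, of which 13 were higher, 8 lower and 7 not called. Of all genes tested, without this limit on level, 28.7% were called higher and 25.1% lower. The limit lets a gene in through the group where it is high. Library totals ran from 16315317 to 17816327 counts.

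**Figure D1:**
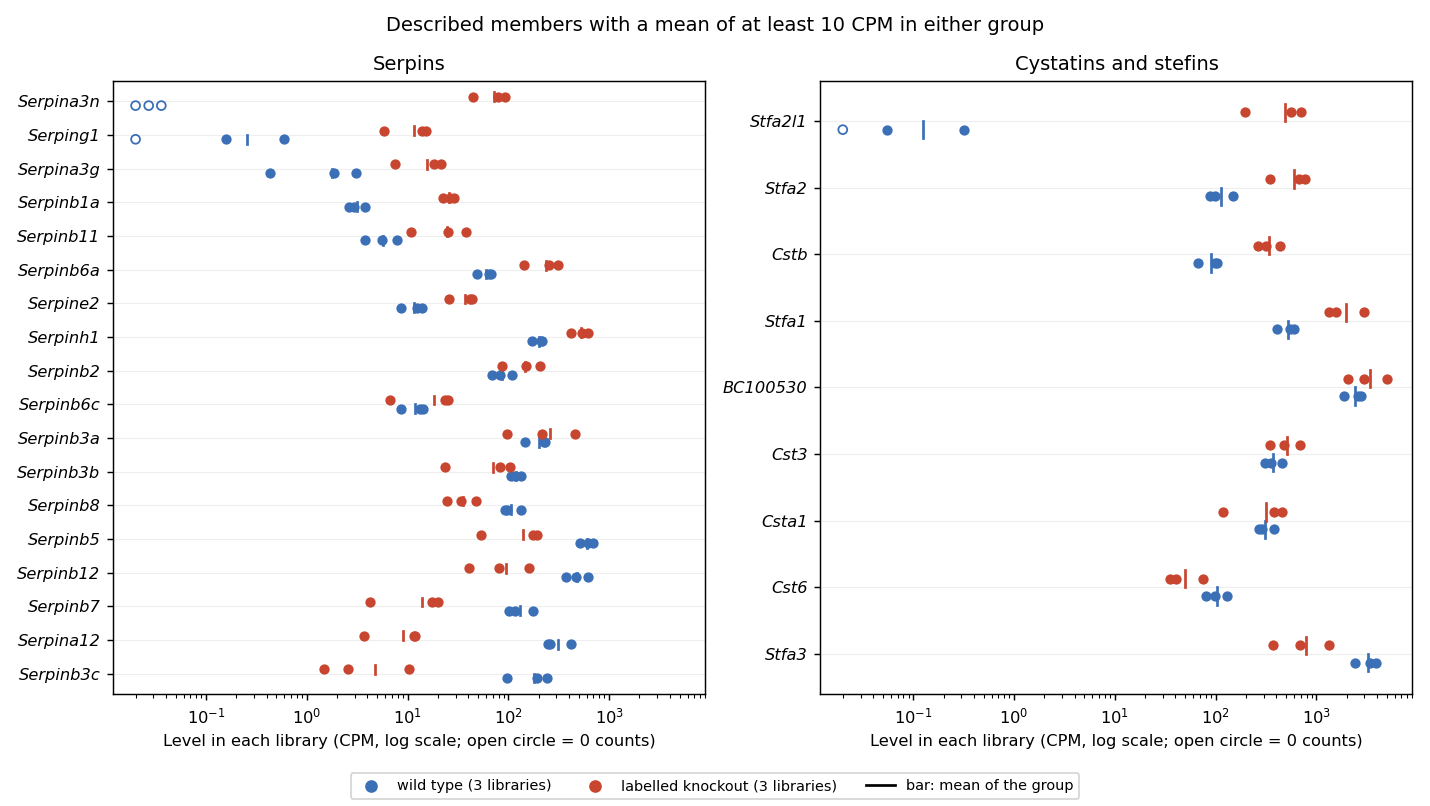
Level of the members with a mean of at least 10 CPM in either group that are described in the text, in every library (x axis, CPM on a log scale; y axis, genes ordered by log2 fold change). Blue points are the 3 wild type libraries, red points the 3 libraries labelled knockout, vertical bars the group means and open circles libraries with no count, which are spread sideways only to be seen. Serpina3n and Stfa2l1 lie at the top of their panels and Serpinb3c and Stfa3 at the bottom.

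Marker genes of several cell types differed between the groups. Summed CPM of 7 basal keratinocyte markers was 19280 to 21300 among wild type and 1887 to 4899 among knockout libraries, and that of 8 suprabasal markers was 68600 to 124200 and 3321 to 8121. All 15 of these markers were lower (edgeR adjusted p under 0.05) and none was at 0 in any library, so the markers of the labelled tissue were present in both groups. Fibroblast markers summed to 248.7 to 258.8 CPM (wild type) and 3585 to 9290 CPM (knockout), and macrophage markers to 160.0 to 174.5 and 9253 to 17480 CPM, with 7 of 7 and 8 of 8 higher. Dcn (209 ± 35.6 CPM in the wild type) made up most of the wild type fibroblast sum and rose 2.39-fold. Neutrophil markers went from 1.53 to 2.78 CPM up to 802 to 1238 CPM, with 5 of 7 tested and all 5 higher. Ly6g and Retnlg, which define neutrophils, had no count in the wild type. In the knockout Ly6g reached only 1.20 ± 0.89 CPM, while Retnlg stood at 45.3 ± 19.9 CPM. Of the granule genes, Camp reached 0.55 ± 0.45 CPM, Ngp 5.90 ± 1.22 CPM and Ltf 11.7 ± 7.56 CPM. The receptor genes Csf3r and Cxcr2 stood at 675 ± 115 and 270 ± 119 CPM. Platelet markers went from 4.67 to 7.80 CPM up to 1002 to 1503 CPM, endothelial markers from 0.955 to 2.84 up to 181 to 353 CPM, and red cell markers from 3.87 to 7.83 up to 929 to 1873 CPM. Pf4 (1211 ± 261 CPM in the knockout) made up most of the platelet sum and Pecam1 (250.5 ± 84.1 CPM) most of the endothelial sum. The platelet genes Gp9 and Gp1bb and the endothelial genes Emcn and Tek stayed below 1 CPM on average in both groups. Hepatocyte markers reached 5.29 to 34.8 CPM in the knockout, from at most 0.371 CPM, and skeletal muscle markers 6.63 to 18.2 CPM, from at most 1.20 CPM. Only 1 of 5 hepatocyte markers, Alb, was tested, and the hepatocyte sum was 8.15 and 5.29 CPM in knockout libraries 1 and 2. Summed mast cell markers stood at 39.8 to 53.4 CPM (wild type) and 35.7 to 39.7 CPM (knockout), T and NK cell markers at 6.37 to 22.6 and 2.73 to 8.49 CPM, and melanocyte markers at 346 to 489 and 134 to 270 CPM. Most of the mast cell sum is Kit, which was lower, while the other 3 tested mast cell markers (Cpa3, Cma1 and Tpsb2) were higher. Of the melanocyte markers Dct and Pmel were lower, Mlana was higher and Tyrp1 was not called. These shifts stand beside every result that follows, and their part in them was not tested. In whole tissue, fewer cells of a type and less RNA per cell cannot be told apart.

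The stefins took different directions: Stfa3 fell, Stfa1, Stfa2 and Stfa2l1 rose, and BC100530 and Csta1 were not called. All 6 lie on chromosome 16 between positions 36119946 and 36455392 (mm10), a span of 335.4 kb. The promoters of 4 of them are shown because these copies resemble each other closely and yet took different courses. Each line gives the 250 bases before the RefSeq start (GRCm38.p6), read 5′ to 3′ on the gene's strand, and capitals mark matches on either strand to TATAAA (the TATA box), TGANTCA (AP-1) or TTNNGNAA (C/EBP).

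Stfa3: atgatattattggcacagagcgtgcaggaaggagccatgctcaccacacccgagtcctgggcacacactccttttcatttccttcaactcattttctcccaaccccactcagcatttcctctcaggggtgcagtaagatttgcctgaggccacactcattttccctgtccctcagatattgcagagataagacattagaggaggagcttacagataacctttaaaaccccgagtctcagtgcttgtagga
Stfa1: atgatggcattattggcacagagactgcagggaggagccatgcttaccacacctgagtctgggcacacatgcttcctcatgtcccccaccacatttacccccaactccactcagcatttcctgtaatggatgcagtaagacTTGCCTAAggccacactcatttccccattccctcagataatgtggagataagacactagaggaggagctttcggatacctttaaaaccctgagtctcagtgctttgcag
Stfa2: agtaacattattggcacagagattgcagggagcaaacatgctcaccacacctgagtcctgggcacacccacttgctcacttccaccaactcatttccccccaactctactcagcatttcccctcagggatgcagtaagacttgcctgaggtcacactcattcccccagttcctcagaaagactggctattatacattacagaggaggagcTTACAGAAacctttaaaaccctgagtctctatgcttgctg
Stfa2l1: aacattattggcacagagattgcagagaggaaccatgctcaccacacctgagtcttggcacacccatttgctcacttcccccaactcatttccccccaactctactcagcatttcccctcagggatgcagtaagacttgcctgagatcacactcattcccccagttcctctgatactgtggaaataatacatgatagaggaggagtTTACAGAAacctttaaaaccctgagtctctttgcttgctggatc

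These windows lie at chr16:36455393-36455642 (minus strand) for Stfa3, chr16:36276898-36277147 (plus) for Stfa1, chr16:36408364-36408613 (minus) for Stfa2 and chr16:36156561-36156810 (plus) for Stfa2l1. In the deposited table Stfa1 spans 36276951 to 36285373 and Stfa2 spans 36403992 to 36408457. Their windows, which follow the RefSeq starts, therefore lie partly inside these spans. The window of Stfa3 was 83.5% identical to that of Stfa1 and 80.4% to that of Stfa2 in a global alignment, and Stfa2 and Stfa2l1 were 89.4% identical. The C/EBP letters stand once in Stfa1, Stfa2 and Stfa2l1, at 109, 40 and 44 bases before the start, and not in Stfa3. They are loose letters that 36.8% of 32851 RefSeq promoter windows of this length hold. TGANTCA, found in 6.75% of all windows, and TATAAA, found in 12.4%, matched none of the 4. BC100530, which was not called, holds the C/EBP letters once, and 2010005H15Rik, a neighbour in the cluster that was higher, does not. Of 3 further motifs searched and not marked, GAGGAA (PU.1, in 23.3% of all windows) stands in all 4, while TTCNNNGAA (STAT, 7.02%) and AACCNGTT (GRHL, 1.79%) stand in none. A match describes the letters only.

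Stfa3, a cystatin A copy, had the highest FPKM of all members in the wild type (7765 ± 1906) and fell 4.11-fold. Its level was 2449, 3943 and 3420 CPM in wild type libraries 1 to 3 and 682, 1331 and 375.7 CPM in the knockout libraries (log2 fold change -2.04 ± 0.46 SE, edgeR adjusted p = 0.0032). The highest knockout library stayed below the lowest wild type library. Without knockout replicate 2, the highest of its group, the log2 fold change was -2.63.

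Stfa1, the gene of stefin A1, stood at 407, 607 and 551 CPM in the wild type and at 1558, 2998 and 1333 CPM in the knockout. The groups did not overlap, and the rise was 3.76-fold (log2 fold change 1.91 ± 0.38, edgeR adjusted p = 0.0013). Stfa2, the gene of stefin A2, stood at 97.8, 150 and 89.0 CPM and at 346, 773 and 668 CPM (5.30-fold, log2 fold change 2.41 ± 0.35, edgeR adjusted p = 1.9e-04). All 3 knockout libraries lay above the wild type here too.

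Stfa2l1, a copy close to Stfa2, rose from near 0 counts. It had 1, 0 and 6 counts in the wild type libraries and 3478, 10886 and 9125 in the knockout libraries, or 0.124 ± 0.170 and 491 ± 265 CPM. The fitted log2 fold change was 11.81 ± 0.80 (edgeR adjusted p = 7.6e-07) and 13.73 without wild type replicate 3, which holds 6 of the 7 wild type counts. Knockout library 1 was the lowest of its group for Stfa2l1 (197 CPM) and for Stfa2. The FPKM of Stfa2l1 divided by that of Stfa2 reached at most 0.0040 among wild type libraries and ran from 0.639 to 1.03 among knockout libraries.

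BC100530, which shares its start position with the RefSeq cystatin domain gene Cstdc5, was the stefin with the highest FPKM in the knockout (4240 ± 1923, against 2997 ± 645 in the wild type). It stood at 1864, 2778 and 2623 CPM in the wild type and at 3001, 5082 and 2046 CPM in the knockout, with overlapping groups (log2 fold change 0.48 ± 0.39, edgeR adjusted p = 0.327). Csta1, the mouse gene named for cystatin A itself, stood at 288, 377 and 270 CPM and at 382, 454 and 120 CPM (log2 fold change 0.031 ± 0.41, edgeR adjusted p = 0.956). Knockout library 3 was low for both, and it also had the lowest basal (1887 CPM) and suprabasal (3321 CPM) keratinocyte marker sums.

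The summed counts of the 6 genes overlapped between the groups, while the proportions of 5 of the 6, all but Csta1, did not. They took 0.574%, 0.772% and 0.736% of all counts in the wild type libraries and 0.654%, 1.00% and 0.463% in the knockout libraries. Within this sum the share of Stfa3 was 48.0% to 50.2% for wild type and 7.36% to 11.7% for knockout libraries. Stfa1 held 7.73% to 7.97% and 25.3% to 26.4%, the narrowest spread of the 6 genes within the knockout group. BC100530 held 36.5 ± 1.18% and 44.5 ± 4.31%, and Stfa2l1 at most 0.0046% and 3.19% to 11.1%. Because the shares add to a fixed sum, they are not independent of each other. The FPKM of Stfa1 was 0.0893 to 0.0964 times that of Stfa3 in wild type and 1.31 to 2.06 times in knockout libraries. These ratios were picked after the values were seen.

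**Figure D2:**
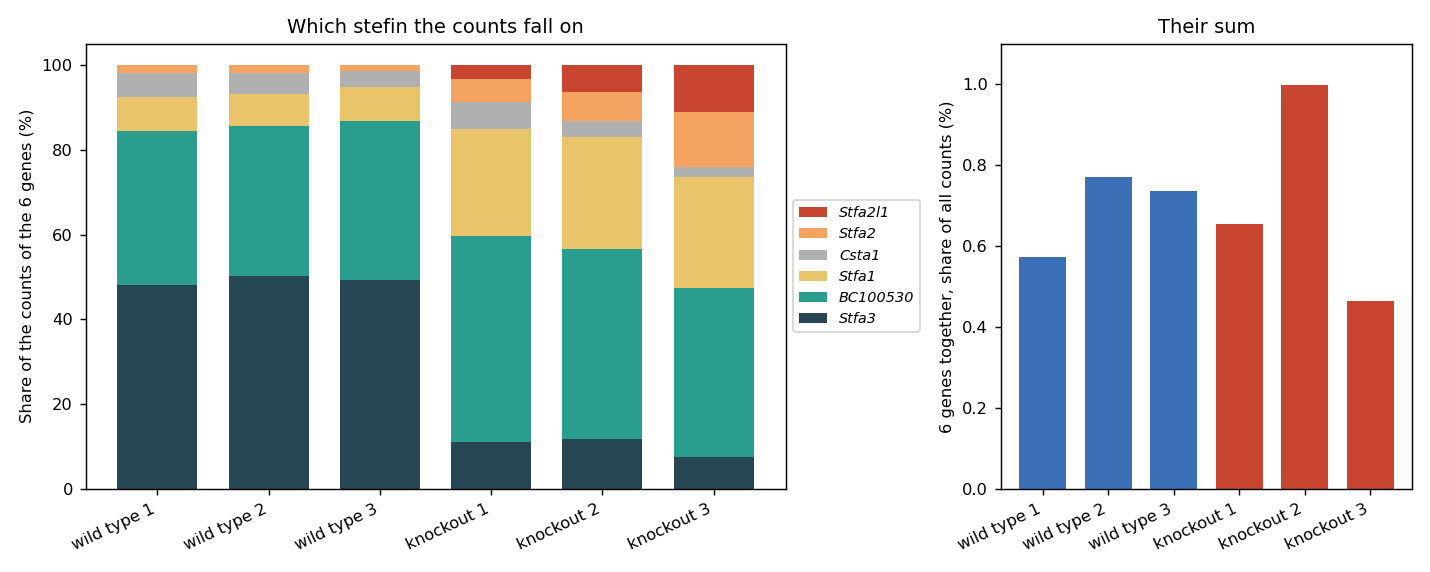
Left, share of the summed counts of the 6 chromosome 16 stefins that falls on each gene (y axis, percent) in every library (x axis). Right, the 6 genes together as a share of all counts of the library, with wild type libraries in blue and knockout libraries in red. Stfa3 shrinks from 48.0% to 50.2% of the bar to 7.36% to 11.7%, while the sum ranges over 0.463% to 1.00% without a split by group.

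The counting can blur these copies. Of the 50-base words in the GENCODE M21 transcripts of BC100530, 25.1% also occur in transcripts of other genes, first Stfa1, and the share was 22.5% for Stfa1, 24.6% for Stfa2l1 and 15.9% for Stfa2. For 100-base words it was 9.49%, 5.07%, 0% and 0%. Stfa3 shared no 50-base word with any other gene. Read length is not given in the sources used here. BC100530 also overlaps the antisense gene Gm15845, which had 166 counts in the wild type and 867 in the knockout against 129038 and 163805 for BC100530.

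Cstb, which encodes cystatin B, the widely expressed stefin that guards against cathepsins leaking from lysosomes, lies apart on chromosome 10 and rose. It stood at 66.8, 103 and 97.9 CPM in the wild type and at 261, 433 and 320 CPM in the knockout (3.78-fold, log2 fold change 1.92 ± 0.28, edgeR adjusted p = 1.6e-04), with no overlap. It shared no 50-base word with another gene.

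The secreted cystatins diverged. Cst3 encodes cystatin C, the general extracellular cathepsin inhibitor, and was not called: it stood at 312, 455 and 358 CPM in the wild type and at 347, 697 and 478 CPM in the knockout (log2 fold change 0.44 ± 0.31, edgeR adjusted p = 0.253). Cst6 encodes cystatin M/E, which inhibits cathepsins V and L and legumain in the cornifying layers and whose loss in mice causes a barrier defect. Cst6 stood at 99.9, 130 and 80.4 CPM in the wild type and at 40.1, 74.7 and 35.0 CPM in the knockout (log2 fold change -1.05 ± 0.31, edgeR adjusted p = 0.0139). Its groups lay close, with the highest knockout library just under the lowest wild type library. Cst6 lost its call when wild type replicate 2 (adjusted p = 0.0534), knockout replicate 3 (0.0543) or both libraries numbered 1 (0.0702) were left out. Cst7, the leukocyte gene of cystatin F, rose from 0.515 ± 0.406 to 4.05 ± 1.54 CPM (edgeR adjusted p = 0.0034). It lies below the 10 CPM limit and was chosen after its values were seen, as are the other members under that limit named here.

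Most cathepsins and legumain, the group that holds the cysteine proteases these inhibitors act on, rose. Of these 14 genes, 12 were higher and 1 lower (28.7% and 25.1% of all genes tested), with a median log2 fold change of 3.39, and their summed level went from 976 to 1403 CPM up to 12010 to 20950 CPM. Among the 12 are Ctsa, Ctsd and Ctse, which encode serine and aspartic proteases that cystatins do not inhibit. Legumain (Lgmn), an asparagine-specific protease that Cst6 inhibits, rose from 44.7 ± 0.789 to 3863 ± 1109 CPM, a log2 fold change of 6.43 ± 0.41 (edgeR adjusted p = 4.8e-07). Ctsk, the bone and fibroblast collagenase cathepsin K, rose from 0.406 ± 0.263 to 52.6 ± 15.2 CPM. Ctsw, of cytotoxic lymphocytes, went down from 6.50 ± 3.70 to 1.93 ± 0.481 CPM (edgeR adjusted p = 0.0084). On the FPKM scale Ctsb, Ctsl and Ctss, 3 common lysosomal cathepsins picked for this comparison, went from 32.1, 23.6 and 24.6 to 887, 469 and 1011. Cstb and Cst3 went from 145 and 289 to 557 and 398 on that scale. In the same libraries 8 of 8 macrophage markers were higher, and their part in the rise of the cathepsins was not tested.

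Clade B is the largest serpin group here, with 26 members in clusters on chromosome 1 (11 members, 106861173 to 107610484) and chromosome 13 (15 members, 32842092 to 34002794). On chromosome 1, 10 members were tested, of which 5 fell and 1 rose. On chromosome 13, 6 were tested, of which 2 rose and 1 fell. Over all genes tested, 28.7% were called higher and 25.1% lower, and the difference between the clusters was not tested. Summed clade B counts took 0.178% to 0.233% of all counts in wild type and 0.0575% to 0.133% in knockout libraries, so the groups did not overlap.

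Serpinb5, Serpinb12, Serpinb7, Serpinb8 and Serpinb3c fell on chromosome 1, beside keratinocyte markers that were lower in 15 of 15 cases. Serpinb5 encodes maspin, a serpin that inhibits no known protease and is strong in epithelia. It stood at 519, 688 and 624 CPM in the wild type and at 175, 192 and 53.8 CPM in the knockout (4.36-fold lower, log2 fold change -2.12 ± 0.42, edgeR adjusted p = 0.0015). Serpinb12, a clade B inhibitor of trypsin-like proteases, stood at 372, 617 and 465 CPM and at 81.7, 159 and 40.8 CPM (log2 fold change -2.37 ± 0.44, edgeR adjusted p = 9.6e-04, and -2.98 without knockout replicate 2). For both genes all 3 knockout libraries lay below the wild type, with library 3 lowest, as it was for the summed keratinocyte markers. Of the single markers, Krt15, Itga6, Itgb4 and Flg were lowest in knockout library 2.

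Serpinb7 fell most among the chromosome 1 members that have no close copy. Loss of its human counterpart causes Nagashima-type palmoplantar keratoderma. Its levels were 102, 175 and 118 CPM in the wild type and 20.2, 17.6 and 4.27 CPM in the knockout (9.36-fold lower, log2 fold change -3.23 ± 0.48, edgeR adjusted p = 2.2e-04). Serpinb8, whose loss in humans causes a peeling skin disorder, stood at 96.2, 133 and 93.7 CPM and at 47.5, 34.0 and 24.5 CPM (log2 fold change -1.60 ± 0.27, edgeR adjusted p = 5.1e-04). The groups were apart for both genes.

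Serpinb3 copies, mouse relatives of the human squamous cell carcinoma antigens, did not move as one. Serpinb3c stood at 97.0, 194 and 243.5 CPM in the wild type and at 2.55, 10.3 and 1.49 CPM in the knockout, a 37.6-fold fall (log2 fold change -5.23 ± 0.66, edgeR adjusted p = 6.5e-05, and -6.45 without knockout replicate 2). Its neighbour Serpinb3b stood at 106, 133 and 116 CPM and at 104, 83.6 and 23.8 CPM and was not called (log2 fold change -0.75 ± 0.42, edgeR adjusted p = 0.154), although it was without knockout replicate 1 (adjusted p = 0.0425). Serpinb3a stood at 147, 229 and 224 CPM and at 218, 455 and 96.3 CPM, with the knockout libraries on both sides of the wild type (edgeR adjusted p = 0.527). Serpinb3d was scarce, at 3.05 ± 3.14 and 5.43 ± 5.14 CPM, and was not called. The FPKM of Serpinb3b was 0.467 to 1.07 times that of Serpinb3c among wild type and 8.01 to 40.0 times among knockout libraries. This pair was set side by side after its values were seen.

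The promoter windows of this pair are shown because they are nearly alike, at 88.1% identity over 250 bases, while the genes parted. They lie at chr1:107161115-107161364 for Serpinb3b and chr1:107278372-107278621 for Serpinb3c, both on the minus strand, with capitals as above.

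Serpinb3b: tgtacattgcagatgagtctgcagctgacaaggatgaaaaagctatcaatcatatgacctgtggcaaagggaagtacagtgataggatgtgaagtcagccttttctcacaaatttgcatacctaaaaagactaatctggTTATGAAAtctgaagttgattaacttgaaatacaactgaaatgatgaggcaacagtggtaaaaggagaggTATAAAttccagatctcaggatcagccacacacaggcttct
Serpinb3c: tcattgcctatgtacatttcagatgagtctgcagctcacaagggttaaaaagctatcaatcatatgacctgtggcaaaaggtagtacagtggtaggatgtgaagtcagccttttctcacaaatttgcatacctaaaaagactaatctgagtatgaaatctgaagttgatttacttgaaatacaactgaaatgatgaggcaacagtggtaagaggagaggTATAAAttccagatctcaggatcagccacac

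Both windows hold TATAAA, at 41 and 31 bases before the start, and the C/EBP letters stand once in Serpinb3b and not in Serpinb3c. The Serpinb3b window follows the RefSeq start; in the deposited table the span of Serpinb3b (107153940 to 107278361) runs over that of Serpinb3c (107271201 to 107278371) on the same strand, and 14.7% and 12.2% of their 50-base words occur in other genes. For 100-base words the share was 0.515% and 0.513%. How reads in the shared span were assigned is not given in the sources used here.

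On the same chromosome Serpinb11, a mouse inhibitor of trypsin-like proteases, rose. It stood at 3.77, 5.56 and 7.80 CPM in the wild type and at 37.7, 25.4 and 10.9 CPM in the knockout (4.31-fold, log2 fold change 2.11 ± 0.43, edgeR adjusted p = 0.0017). Knockout library 3 came nearest to the wild type. Serpinb2 encodes plasminogen activator inhibitor 2, which stressed keratinocytes and macrophages make. It stood at 69.4, 108 and 83.6 CPM in the wild type and at 207, 148 and 86.2 CPM in the knockout, and was not called (log2 fold change 0.76 ± 0.31, edgeR adjusted p = 0.0612). Without knockout replicate 3 Serpinb2 was called (1.03, adjusted p = 0.0101). It overlaps Serpinb10, which the table lists as a polymorphic pseudogene, on the same strand, and 10.4% of its 50-base words occur there. Serpinb10 itself went from 54.0 ± 18.6 to 6.90 ± 5.36 CPM (edgeR adjusted p = 5.6e-04).

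On chromosome 13 Serpinb1a and Serpinb6a rose and Serpinb1b fell. Serpinb1a, an inhibitor of neutrophil elastase, cathepsin G and proteinase 3, went from 3.82, 2.63 and 2.92 CPM to 26.6, 28.8 and 22.3 CPM (8.26-fold, log2 fold change 3.05 ± 0.26, edgeR adjusted p = 3.5e-06). Its 3 target genes were scarce: Elane and Ctsg did not pass the filter, at 0.365 ± 0.469 and 0.560 ± 0.252 CPM in the knockout, and Prtn3 stood at 1.25 ± 0.623 and 1.68 ± 0.449 CPM (edgeR adjusted p = 0.495). Its copy Serpinb1b fell, from 4.25 ± 0.381 to 0.497 ± 0.317 CPM, a log2 fold change of -3.06 (edgeR adjusted p = 6.3e-04). Serpinb6a, a cytoplasmic serpin of many cell types, stood at 48.6, 64.3 and 67.6 CPM in the wild type and at 142, 313 and 256 CPM in the knockout (3.94-fold, log2 fold change 1.98 ± 0.30, edgeR adjusted p = 2.5e-04). It overlaps Ripk1 and Nqo2 on the other strand, whose counts went from 1261 to 4908 and from 136 to 959 over the groups. Serpinb6c stood at 8.57, 14.1 and 13.2 CPM and at 23.3, 25.2 and 6.63 CPM and was not called (edgeR adjusted p = 0.245), although it was without knockout replicate 3 (adjusted p = 0.0115). Serpinb6b stood at 3.04 ± 0.687 and 2.38 ± 0.773 CPM and was not called. Serpinb9, the granzyme B inhibitor, stood at 1.53 ± 0.387 and 1.60 ± 0.681 CPM (edgeR adjusted p = 0.912).

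**Figure D3:**
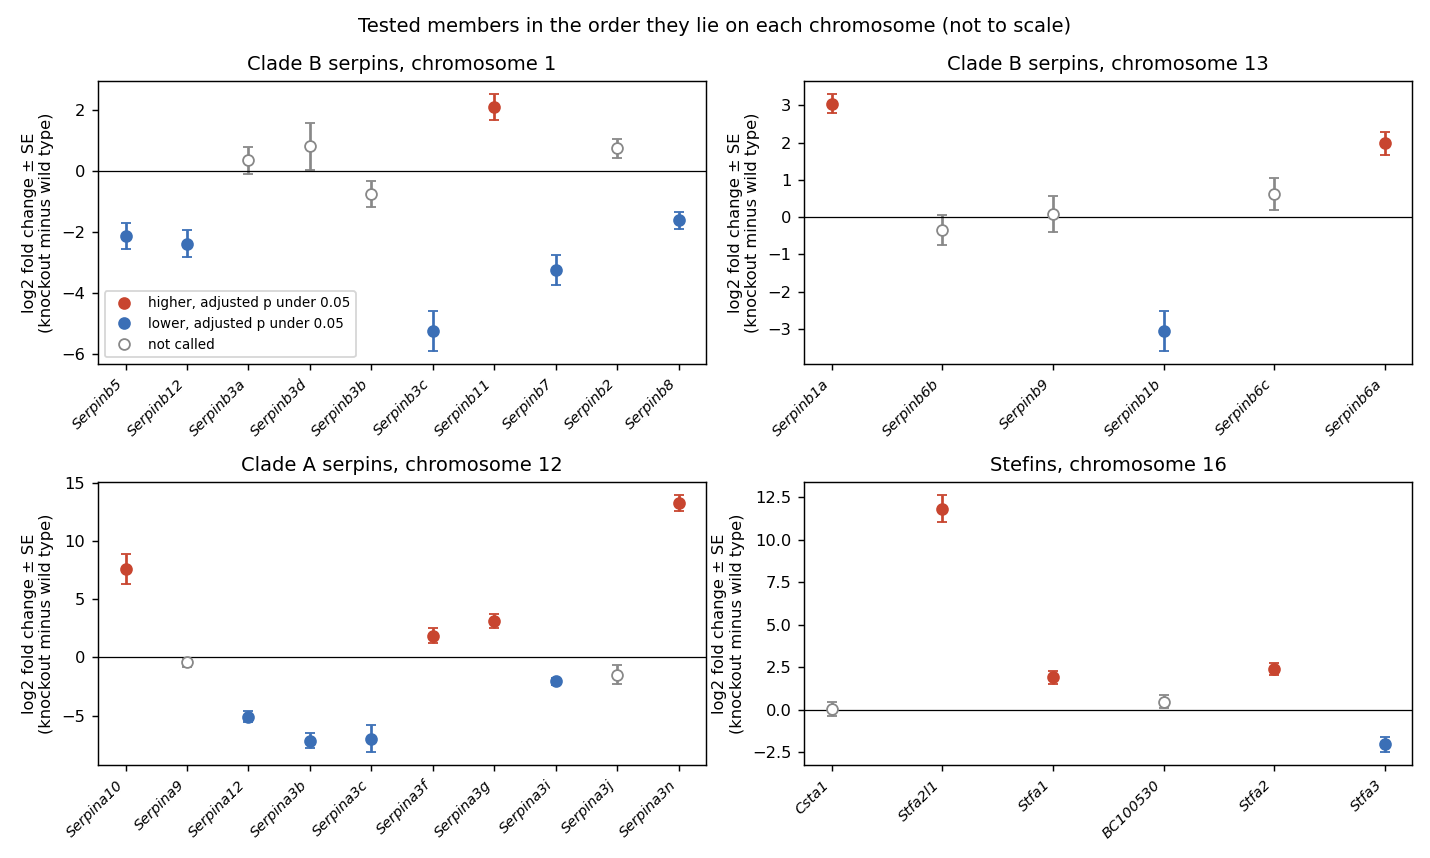
Log2 fold change with its SE (y axis, knockout minus wild type) for each tested member of the 4 gene clusters, in the order in which the genes lie on the chromosome (x axis, not to scale). Red points are higher, blue points lower and open grey points not called at an adjusted p under 0.05. Genes of each cluster lie on both sides of 0, as with Serpinb3c at -5.23 and Serpinb11 at 2.11.

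Clade A, the family of secreted inhibitors named for antitrypsin, held the most divergent members. Its 23 members on chromosome 12 lie between 103614786 and 104414329, and of the 10 tested 4 rose and 4 fell. For comparison, 28.7% of all genes tested were called higher and 25.1% lower. Serpina12 encodes vaspin, an adipokine that keratinocytes also make and that inhibits kallikrein 7. It stood at 261, 421 and 248 CPM in the wild type and at 11.95, 11.6 and 3.72 CPM in the knockout, a 34.0-fold fall (log2 fold change -5.09 ± 0.46, edgeR adjusted p = 5.2e-06). No library of one group came near the other.

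Serpina3n encodes an acute-phase inhibitor of granzyme B and elastase that astrocytes, fibroblasts and liver make on inflammation. It had no count in any wild type library and 780, 1199 and 1486 counts in the knockout libraries, or 44.2, 78.3 and 92.0 CPM. Against a floor of 3 counts over the wild type group it was at least 1259-fold higher (edgeR adjusted p = 6.7e-07). This floor covers counting error only. Serpina3g, a cytoplasmic member of this group in T cells and macrophages, went from 3.06, 0.428 and 1.86 CPM to 7.48, 21.6 and 18.3 CPM (8.75-fold, log2 fold change 3.13 ± 0.59, edgeR adjusted p = 9.7e-04). Without wild type replicate 1 its log2 fold change was 3.75. It shares 15.5% of its 50-base words with other genes, first the pseudogene Serpina3h, which went from 48.6 ± 6.30 to 1.72 ± 0.669 CPM. Serpina3f rose from 0.371 ± 0.247 to 1.36 ± 0.722 CPM (edgeR adjusted p = 0.0334).

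Other Serpina3 copies went the other way at low levels. Serpina3b fell from 6.77 ± 1.45 CPM to 2 counts over the knockout libraries (ratio 0.0060, counting interval 7.2e-04 to 0.0217), and Serpina3i from 7.95 ± 1.29 to 1.89 ± 0.137 CPM (edgeR adjusted p = 2.5e-04). Serpina3c had 0.926 ± 0.255 CPM in the wild type and no count in the knockout (at least 15.3-fold lower, edgeR adjusted p = 8.4e-04). Serpina3j was not called at 0.948 ± 0.614 and 0.327 ± 0.404 CPM. The promoter window of Serpina3c and that of Serpina3n are shown because they are 90.5% identical over 250 bases, the highest value among the 28 pairs of Serpina3 members compared, while one had counts only in the wild type and the other only in the knockout.

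Serpina3c: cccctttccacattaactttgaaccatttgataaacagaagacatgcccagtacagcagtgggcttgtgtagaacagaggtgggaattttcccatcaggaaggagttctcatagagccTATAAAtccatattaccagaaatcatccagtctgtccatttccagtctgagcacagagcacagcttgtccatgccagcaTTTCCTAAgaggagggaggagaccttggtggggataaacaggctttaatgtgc
Serpina3n: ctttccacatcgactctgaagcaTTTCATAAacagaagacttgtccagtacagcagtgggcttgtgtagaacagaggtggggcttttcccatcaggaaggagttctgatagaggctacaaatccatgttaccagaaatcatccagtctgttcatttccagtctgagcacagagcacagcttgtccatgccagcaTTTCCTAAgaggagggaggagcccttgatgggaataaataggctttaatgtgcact

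The windows lie at chr12:104153873-104154122 (minus strand) for Serpina3c and chr12:104406458-104406707 (plus) for Serpina3n. TATAAA stands in Serpina3c at 132 bases before the start and not in Serpina3n, and the C/EBP letters stand once in Serpina3c and 2 times in Serpina3n. Of the 50-base words of Serpina3n, 6.90% occur in other genes, and 4.25% of those of Serpina3c. Serpina10, the secreted inhibitor of factor X that the liver makes, had no wild type count and 1.41 ± 0.877 CPM in the knockout (at least 24.3-fold higher, edgeR adjusted p = 8.4e-04). Serpina9, a serpin of germinal centre B cells, was not called at 9.72 ± 3.51 and 7.26 ± 3.63 CPM.

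Serpine2, Serping1, Serpinh1, Serpinf1 and Serpinf2 rose, where 28.7% of all genes tested were called higher. Serpine2 encodes protease nexin 1, a thrombin and urokinase inhibitor of fibroblasts and hair follicles. It stood at 12.4, 8.56 and 14.1 CPM and at 43.3, 42.1 and 25.5 CPM (3.16-fold, log2 fold change 1.66 ± 0.28, edgeR adjusted p = 4.9e-04). The groups did not overlap.

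Serping1 encodes the C1 inhibitor of complement and contact activation. It had 11, 0 and 3 counts in the wild type (0.253 ± 0.311 CPM) and stood at 5.89, 15.3 and 13.9 CPM in the knockout (log2 fold change 5.46 ± 0.72, edgeR adjusted p = 8.8e-05). Without wild type replicate 1, which held 11 of those counts, it was 6.99. Serpinh1 encodes Hsp47, a chaperone of the endoplasmic reticulum that folds collagen and inhibits no protease. It stood at 213, 171 and 216 CPM in the wild type and at 415, 536 and 623 CPM in the knockout (2.62-fold, log2 fold change 1.39 ± 0.26, edgeR adjusted p = 9.2e-04). Of 11 collagen genes, its clients, 7 rose and 2 fell (median log2 fold change 3.46). Among all genes tested 28.7% were called higher and 25.1% lower. Col6a1 rose from 3.62 ± 2.08 to 594 ± 226 CPM and Col1a2 from 25.8 ± 10.03 to 1418 ± 624 CPM, while Col7a1, the anchoring fibril collagen of keratinocytes, went down from 612 ± 161 to 124 ± 16.1 CPM.

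At lower levels Serpinf1, which encodes the antiangiogenic factor PEDF, rose from 1.06 ± 0.121 to 7.47 ± 1.58 CPM, and Serpinf2, the gene of antiplasmin, from 0.636 ± 0.172 to 1.89 ± 0.471 CPM (edgeR adjusted p = 6.7e-05 and 0.0193). Serpinc1, the antithrombin gene, was not called at 0.744 ± 0.254 and 1.82 ± 0.750 CPM (edgeR adjusted p = 0.0591). Serpini1, the gene of neuroserpin, fell from 3.07 ± 1.52 to 0.537 ± 0.336 CPM (edgeR adjusted p = 0.0047). Beside these secreted serpins, 7 of 7 fibroblast, 8 of 8 macrophage and 3 of 3 tested platelet markers were higher (28.7% of all genes tested). All 7 basal and 8 suprabasal keratinocyte markers were lower, as were 2 of 4 tested T and NK cell markers and 2 of 4 melanocyte markers. The part of these cells in the serpin values was not tested.

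Genes of plasminogen activation and coagulation, where several secreted serpins act, were set beside them. Of 13 tested, 10 were higher and 1 lower (28.7% and 25.1% of all genes tested), with a median log2 fold change of 3.82. The proteases among them are Plau, Plat, F7 and F10, and the others encode receptors, cofactors and a transglutaminase. The urokinase receptor gene Plaur rose from 1.31 ± 0.448 to 198 ± 19.4 CPM, and the factor VII gene F7 went from 2 counts over the wild type libraries to 80.9 ± 15.7 CPM (ratio 2144, counting interval 593 to 17710). Tissue factor (F3), which starts coagulation and is made by keratinocytes, fell from 253.5 ± 93.7 to 71.2 ± 26.2 CPM. The plasminogen activator genes Plau and Plat rose from 49.9 ± 8.62 to 143 ± 42.8 CPM and from 1.75 ± 0.515 to 24.8 ± 9.11 CPM, both picked for this role.

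Many kallikreins and membrane serine proteases act in shedding of the cornified layer. Of 21 tested, 6 were higher and 7 lower (median log2 fold change -0.39), beside 28.7% and 25.1% of all genes tested. Tmprss4 fell from 143.5 ± 11.98 to 12.1 ± 4.69 CPM and Klk5 from 193 ± 68.2 to 22.8 ± 7.71 CPM, while Klk14 went from 2 counts over the wild type libraries to 12.6 ± 2.55 CPM (ratio 341, counting interval 94.1 to 2824). Of 15 listed serine proteases of leukocytes and mast cells 7 were tested, of which 5 were higher and none lower. Mcpt8, Gzmb, Tpsb2 and Cma1 passed the filter on low counts through the knockout libraries only, so the filter bears on this split. The basophil gene Mcpt8 was at least 395-fold higher, and the mast cell gene Tpsb2 went up from 0.0953 ± 0.0851 to 2.55 ± 0.623 CPM.

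Protease inhibitors of other families rose more often than they fell. Of 20 tested, 12 were higher and 2 lower, with a median log2 fold change of 2.18. Slpi, a secreted inhibitor of leukocyte elastase, rose from 0.201 ± 0.103 to 131 ± 56.2 CPM, and Pi16, a marker of fibroblast progenitors, from 0.0744 ± 0.0303 to 44.4 ± 10.4 CPM. Wfdc5, an epidermal member of the same fold as Slpi, fell from 61.4 ± 16.9 to 8.08 ± 3.13 CPM. Of 11 tested receptors and partners of serpins 6 rose and 3 fell, beside the same 28.7% and 25.1% of all genes. The clearance receptor gene Lrp1, which takes up serpin and protease complexes, rose from 237 ± 46.2 to 1593 ± 792 CPM and the integrin gene Itgb1 from 170 ± 19.2 to 905 ± 236 CPM. Plxdc2, which encodes a receptor for PEDF, fell from 104 ± 14.3 to 20.7 ± 1.40 CPM.

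**Figure D4:**
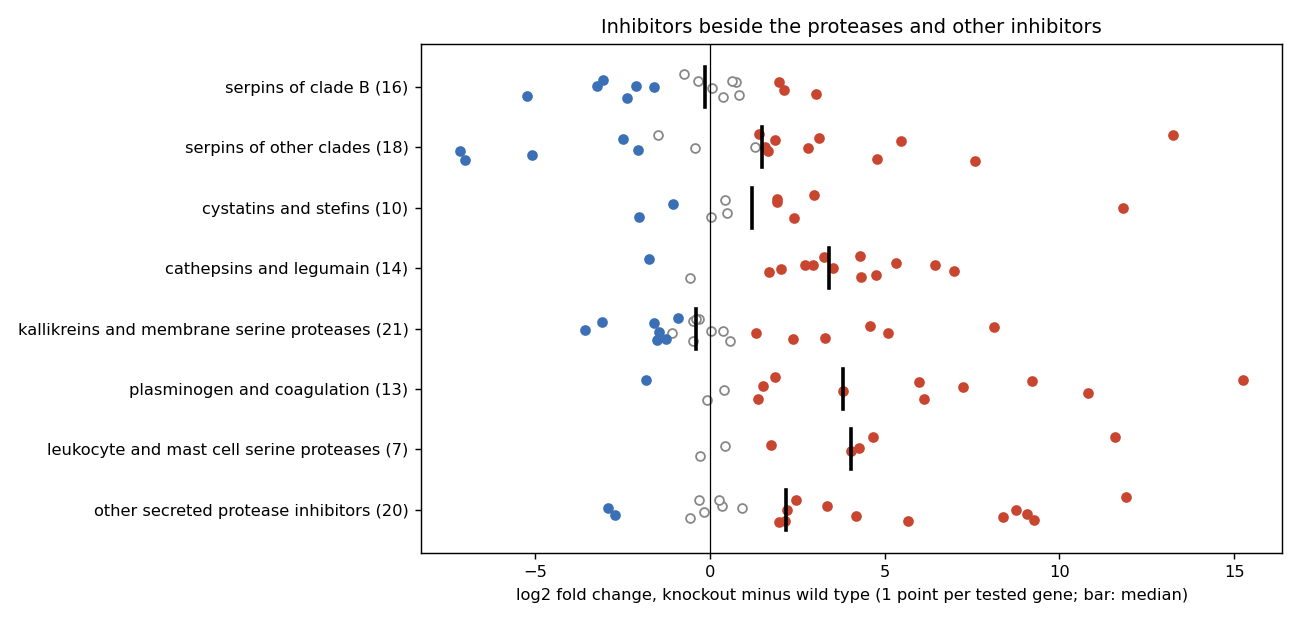
Log2 fold change (x axis, knockout minus wild type) of every tested gene, 1 point per gene, for the inhibitor families and the companion lists (y axis, with the number of tested genes; points are spread vertically only to be seen). Red points are higher, blue points lower and open grey points not called; black bars are medians. Cathepsins (median 3.39) and coagulation genes (3.82) lie to the right of clade B serpins (-0.14) and of cystatins and stefins (1.20). Kallikreins and membrane serine proteases (-0.39) lie to the left of these. The medians of the remaining groups are 1.48 (serpins of other clades), 2.18 (other inhibitors) and 4.04 (leukocyte and mast cell proteases, 7 tested of 15 listed).

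Of the 45 tested members, 19 had all knockout libraries above the wild type, 15 had all below and 11 overlapped. The groups did not overlap for 62.3% of all genes tested, with 31.9% above and 30.4% below. By clade, the clade B median log2 fold change was -0.14 over 16 tested genes, with 3 called higher and 6 lower. For serpins of the other clades the median was 1.48 over 18 tested genes, with 10 called higher and 5 lower. All 7 tested stefins have a mean of at least 10 CPM, and 4 of them rose and 1 fell. Of all genes tested, 28.7% were called higher and 25.1% lower. The differences between clade B, the other clades and the stefins were not tested.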

How the data were processed

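RNA from the epidermis of newborn mice was sequenced, with 3 libraries each for Paxbp1 knockout and wild type. The authors deposited whole-number read counts per gene and FPKM for 54532 genes. Alignment tool HISAT2 2.0.5, counting tool featureCounts 1.5.0-p3 and build mm10 are named per the submitters' processing notes. The strand setting is not given in the sources used here, nor is the read length. Without a strand setting, reads of a gene and its antisense partner cannot be told apart.

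The deposited counts were tested with edgeR 4.0.16 (R 4.3.3): scaling by TMM, filterByExpr with a minimum count of 10 and a minimum total of 15, robust dispersions, and quasi-likelihood F-tests of genotype without covariates. This left 16471 genes and at least 99.7% of the counts of each library. P-values were adjusted by Benjamini-Hochberg over all genes tested. Each SE was derived from the log2 fold change and F (change divided by root F). Floors are 3 counts over a group and counting intervals are exact at 95%; both cover counting error only. The deposited FPKM served to set genes side by side and for alternative tests with limma 3.58.1 on log2(FPKM + 1) and log2(FPKM + 0.1). DESeq2 1.42.0, limma-voom, other scalings and filters, a replicate block and each library left out were the other alternatives. The fit was tested on simulated counts with known changes.

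Same-numbered libraries correlated in their deviations from the group means at 0.23, 0.34 and 0.18, other pairs at -0.32 to 0.073. In this check same-numbered libraries deviated more alike than other pairs did, which was not tested. What the title numbers stand for is unlabelled. The reported p-values come from the fit without pairing, and the block is an alternative.

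Members with a mean of at least 10 CPM in either group are named with their values; 1 of them is not reported here. From each companion list came the 2 genes of lowest adjusted p among those called in the commoner direction and the 1 of lowest adjusted p in the opposite direction; others named were chosen after their values were seen. The members and lists were chosen with earlier results of these data known. Promoter windows came from RefSeq (GRCm38.p6) for 66 of 78 members, 65 by symbol and 1 by start position, cut to the 250 bases before the start and aligned with Biopython 1.88. All 78 members had the same span in GENCODE M21 as in the table.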

Additional observations from a re-analysis of the deposited data

Results flagged for a closer look

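The stefin cluster on chromosome 16 holds further genes whose symbols lie outside the choice of members, and whose counts stood above the wild type in every knockout library. Gm5483, which RefSeq names Cstdc4, had 1380 CPM in the knockout against 0.959 CPM in the wild type (log2 fold change 10.48 ± 0.58). The RefSeq gene Csta2, listed as 2010005H15Rik, had 673 against 0.306 CPM (11.09 ± 0.56), and Gm5416, which RefSeq names Csta3, had 189 against 0.554 CPM (8.42 ± 0.52). BC117090 had 51.4 against 13.9 CPM (1.89 ± 0.34). With these 4 protein-coding neighbours the cluster took 0.575% to 0.774% of all counts in wild type and 0.681% to 1.28% in knockout libraries, still with overlap. Neutrophil markers summed to 1.53 to 2.78 CPM and 802 to 1238 CPM in the same libraries, and their part was not tested.

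Of the non-coding entries inside the cluster, 4 were called higher: the antisense gene Gm15845 at 17.6 CPM in the knockout, and the pseudogenes AC154188.1 at 6.06 CPM, CT033776.1 at 4.25 CPM and Gm10913 at 1.82 CPM. Their wild type levels were 3.17, 0.0182, 0.102 and 0.415 CPM. The small nuclear RNA gene Gm25465 was tested and not called, and the other non-coding entries there had too few counts to be tested. The 8 genes called higher were singled out after their values were seen, and 28.7% of all genes tested were called higher. Some of the 8, such as AC154188.1, passed the filter on low counts through the knockout libraries only.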

How the results depend on the processing

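The counts of serpins called ranged over the alternatives from 9 to 19 higher (13 as reported) and from 7 to 13 lower (11), and those of cystatins and stefins from 2 to 5 higher (5) and 1 to 2 lower (2). The lowest values came from leaving out families of near-identical copies, which by its construction counts fewer genes: 7 serpins were lower, and 2 cystatins or stefins were higher and 1 lower. Likewise 1 cystatin or stefin was lower at an adjusted p under 0.01 and without both libraries numbered 1, an alternative chosen after seeing the data. Leaving out single libraries gave 12 to 16 serpins higher and 11 to 13 lower, 5 cystatins or stefins higher throughout and 1 to 2 lower. With the replicate block the 4 counts were 13, 11, 5 and 2, and the block changed no call of a named member. Of 532 values of the 28 named members under 19 alternatives, 523 kept their side of the threshold and their direction where called, 3 lost the call (all Cst6, at -0.86, -0.85 and -0.96) and 6 gained one (Serpinb2 3 times, Serpinb3b 2 times, Serpinb6c once); none reversed. Serpinb2 gained it with no filter (adjusted p = 0.0208), with DESeq2 (0.0358) and without knockout replicate 3. Serpinb3b gained it with no filter (0.0114) and without knockout replicate 1. The cause was not tested. The median log2 fold change over all genes, -0.029 as reported, was -0.22 with upper-quartile and -0.18 with library-size scaling, and the share of higher among called genes 44.6% and 47.1% against 53.3%. Depth limits the 33 members not tested, at most 2.10 CPM in any library.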
